A study of Mus musculus with 47 samples.

Results

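Late withdrawal was examined as a single comparison of 24 arrays, 12 from mice exposed to chronic intermittent ethanol (CIE) and 12 from air-exposed controls (Ctrl), out of the 47 arrays of the series. The members were chosen by their labels alone: every mouse whose medial prefrontal cortex (PFC) was harvested 72h or 7d after the last exposure, 6 mice per exposure and time. All were adult male C57BL/6J mice, housed individually, and each array held the RNA of 1 mouse. CIE mice breathed ethanol vapor (10 to 13 mg/l air) for 16 h a day on 4 days, followed by 7 days of abstinence, through 4 such cycles, each begun with an injection of ethanol (1.6 g/kg). Ctrl mice breathed air and received saline in place of ethanol. Both groups were given pyrazole (1 mmol/kg), an inhibitor of alcohol dehydrogenase, so the comparison shows ethanol on top of pyrazole and not against untreated mice. Each time point had Ctrl mice of its own, and the 72h and 7d effects therefore rest on different animals in both arms. The question is which expression differences are present 72h and 7d after the last exposure. A further question is whether pooling both times shows differences that a single time does not. Pooling gives 12 mice per arm in place of 6. The paper counts 72h among the times of peak withdrawal, so the pooled calls cannot separate withdrawal from what outlasts it.

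The medial PFC takes part in working memory, planning and the control of drug seeking. Repeated cycles of ethanol vapor and abstinence leave rodents drinking more when ethanol is offered later. In the first hours after ethanol, stress hormones, immune signals and neuronal activity all shift. What remains days later is thought of as a candidate for the lasting part of the adaptation. Expression was read on an Affymetrix whole-genome mouse array, on which a probeset is a group of short probes aimed at one stretch of a transcript, usually near its 3' end. Many genes have several probesets, which can see different transcript ends.

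Array medians were 6.42 on the log2 scale, which the quantile normalization of the deposited values makes equal, so they do not show that the 24 arrays were alike. No pair of arrays was identical, and each array correlated with the remaining ones at a mean r between 0.985 and 0.995. The lowest belonged to CIE 72h mouse 3, and the next lowest arrays (Ctrl 7d mouse 46 and CIE 72h mouse 29) were at 0.991. The tissue carried the markers of cortical excitatory neurons (Tbr1 averaged 10.3 in Ctrl and 10.5 in CIE, Slc17a7 9.63 and 9.65). Lists of neighbouring tissue varied between arrays, and their source was not tested. The mean of 15 fibroblast and meningeal genes ranged from 6.88 to 8.36 in Ctrl and from 6.84 to 9.17 in CIE, with the top values in Ctrl 72h mouse 24 and CIE 7d mouse 27. The mean of 20 striatal projection neuron genes ranged from 7.55 to 8.85 in Ctrl and from 7.55 to 9.13 in CIE, and CIE 7d mouse 7, at 9.01, stood well above the other mice of its group. On the first principal component of the 24 arrays (25.7% of the variance) the groups overlapped, from -39.9 to 17.52 in Ctrl and from -69.13 to 20.15 in CIE. Its lowest arrays were CIE 72h mice 3 and 29 and Ctrl 7d mouse 46. On the second principal component (13.7% of the variance), 9 of 12 Ctrl arrays lay below 0 and 11 of 12 CIE arrays above it. In tissue homogenates, fewer cells of a type and less RNA per cell cannot be told apart.

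Pooled over 72h and 7d, with time point as a block, 1748 of 45037 probesets (3.88%) differed between CIE and Ctrl at FDR ≤ 0.01 by limma. They included 962 that were higher in CIE (2.14%) and 786 that were lower (1.75%), and they named 1236 genes. The differences were small. The median size among called probesets was 0.307 on the log2 scale, only 100 exceeded 0.5 and the largest was 0.935. At an FDR of 0.05, 4517 probesets (10%) passed. Leaving out each array in turn gave between 1263 and 1987 calls, which held between 71.4% and 92.3% of the 1748. Without the 3 arrays of lowest mean correlation, a setting not planned in advance, 1348 were called, 1045 of them among the 1748. A fit of all 47 arrays called 1977, of which 1393 were among the 1748. The count rose to 4411 with array weights and to 2772 with a residual component in the model. It fell to 895 without 4 of the arrays that stood apart in correlation or in a marker list (CIE 72h mouse 3, Ctrl 72h mouse 24, CIE 7d mice 7 and 27). Of these 895 calls, 795 were among the 1748. Ctrl 7d mouse 46, which stood apart in the excitatory cortical neuron list, was kept.

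Dim probesets carried most of the calls. Probesets were divided at the median of their mean level over the 24 arrays (6.41 on the log2 scale) into a bright and a dim set. The level of a probeset depends on its probes as well as on the transcript, so the division sorts signals and not genes. Of 22519 bright probesets, 476 were called (2.11%), 305 higher (1.35%) and 171 lower (0.759%) in CIE. Of 22518 dim probesets, 1272 were called (5.65%), 657 higher (2.92%) and 615 lower (2.73%). The dim set thus held 72.8% of all calls, a call rate 2.67 times that of the bright set. By quartile of level the share called was 4.25% in the dimmest (2.06% higher, 2.19% lower), 7.04% in the second, 2.73% in the third (1.63% higher, 1.09% lower) and 1.5% in the brightest. Spread did not follow level in a simple way, the median residual SD being 0.143, 0.198, 0.175 and 0.118 from the dimmest to the brightest quartile. The split by direction also differed: 64.1% of the bright calls were rises and 51.7% of the dim ones. The typical difference of a called probeset was 0.268 among bright and 0.322 among dim probesets, and 84 of the 100 differences over 0.5 were dim.

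**Figure D1:**
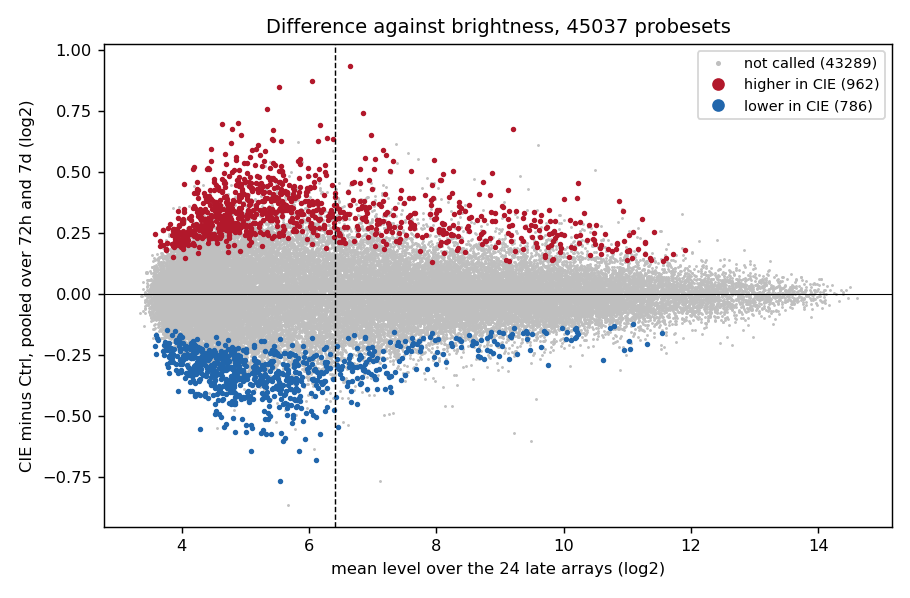
Difference between CIE and Ctrl (log2, pooled over 72h and 7d; y axis) against the mean level of each probeset over the 24 arrays (log2; x axis). Grey points are not called, red points are the 962 probesets called higher in CIE and blue points the 786 called lower. The dashed line is the median level, 6.41, left of which lie 1272 of the 1748 calls.

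**Figure D2:**
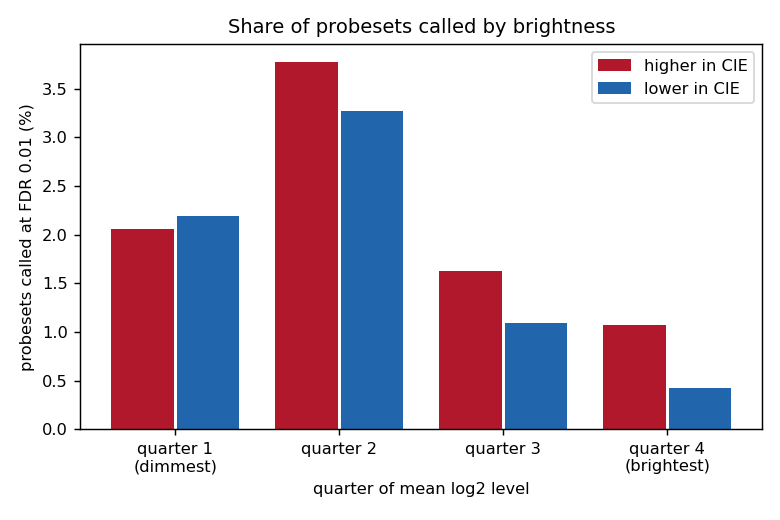
Share of probesets called at FDR 0.01 (percent; y axis) in each quartile of mean log2 level (x axis), red for higher and blue for lower in CIE. Calls were most frequent in the second quartile (3.77% higher, 3.27% lower) and least frequent in the brightest (1.07% higher, 0.426% lower).

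Among bright probesets the 12 largest rises were those of Ankrd45, Atrx, Map2, Tanc2, Usp24, A230006K03Rik, Hectd2, Otud4, B3galt2, Yod1, Usp15 and Ate1, from 0.94 down to 0.47 on the log2 scale. Ankrd45 encodes an ankyrin repeat protein. Its only probeset (1430395_at) read from 5.81 to 6.41 (median 6.20) in the 12 Ctrl mice and from 6.19 to 7.74 (median 7.202) in the 12 CIE mice, a rise of 0.94 ± 0.14 (SE), or 1.91-fold (adjusted p = 0.000216, limma). Of the CIE mice, 10 lay above every Ctrl mouse, and the 2 that did not, at 6.19 and 6.31, were CIE 72h mice 3 and 29. The rise was 0.96 at 72h and 0.91 at 7d.

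Usp24, a deubiquitinase, ran from 6.58 to 7.18 (median 6.87) in Ctrl and from 7.02 to 7.63 (median 7.49) in CIE on probeset 1448013_at. It rose by 0.59 ± 0.07 (SE; adjusted p = 1.393e-05, limma), with 11 of 12 CIE mice above all Ctrl mice. Otud4, another deubiquitinase, ran from 6.48 to 7.07 (median 6.79) in Ctrl and from 6.88 to 7.55 (median 7.28) in CIE, again with 11 of 12 CIE mice above all Ctrl mice. Yod1 (0.50 ± 0.06) and Usp15 (0.49 ± 0.10) belong to the same enzyme class, so that 4 of the 12 largest bright rises were deubiquitinases. Genes of these families have 127 of the 22519 bright probesets, and the class was noticed in these same values and has no test. The brightest probesets of the 4 genes were not called (0.14 for Usp24, 0.09 for Usp15, -0.07 for Yod1 and 0.0003 for Otud4). Hectd2, a ubiquitin ligase of the HECT type, rose by 0.55 ± 0.09 (adjusted p = 0.000265, limma), from a Ctrl range of 7.34 to 8.31 (median 7.62) to a CIE range of 7.95 to 8.52 (median 8.21), so that the groups overlapped in part. Ate1, which attaches arginine to proteins marked for degradation, rose by 0.47 ± 0.10.

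The other large rises were those of Atrx, Map2, Tanc2, B3galt2 and A230006K03Rik. The Atrx probeset (1420948_s_at; a chromatin remodeller) ran from 6.15 to 6.84 in Ctrl and from 5.87 to 7.69 in CIE, where 11 mice were above every Ctrl mouse and CIE 72h mouse 3 was below all of them. The Map2 probeset (1440699_at; the microtubule protein of dendrites) rose by 0.68 ± 0.16, but its groups overlapped (8.31 to 9.71 in Ctrl, 8.60 to 9.84 in CIE) and the call was lost in 20 of the 24 fits that left out 1 array (adjusted p up to 0.068 over all settings, without the 4 arrays named above). Tanc2, a postsynaptic scaffold, rose by 0.65 ± 0.12 and B3galt2, a galactosyltransferase, by 0.51 ± 0.10. For 8 of the 12 rises, all 12 CIE mice exceeded the Ctrl mean of their own time point.

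The 12 largest falls among bright probesets were smaller, from -0.55 to -0.36, and belonged to Faap100, Trps1, Vmac, Actr1a, Rad51d, Prdm11, G0s2, Cuedc1, 2900052N01Rik, Ccdc134, Riok3 and Top1. G0s2, an inhibitor of triglyceride breakdown, has 1 probeset (1448700_at). It ran from 7.32 to 7.61 (median 7.46) in Ctrl and from 6.68 to 7.30 (median 7.09) in CIE, and no CIE mouse reached the lowest Ctrl mouse. The fall was 0.38 ± 0.05 on the log2 scale (adjusted p = 4.451e-05, limma), -0.27 at 72h and -0.50 at 7d. Faap100 and Rad51d both serve DNA repair, in the Fanconi anaemia complex and in homologous recombination. Faap100 fell by 0.55 ± 0.08, from a Ctrl range of 6.24 to 7.00 (median 6.82) to a CIE range of 5.98 to 6.62 (median 6.12), and Rad51d fell by 0.39 ± 0.07, with 11 of 12 CIE mice below every Ctrl mouse. Actr1a, the actin-related subunit of dynactin, fell by 0.40 ± 0.05 on probeset 1457970_at, also with 11 of 12 CIE mice below every Ctrl mouse. Vmac, Ccdc134, Riok3 and Trps1 lost the call in 18, 17, 11 and 2 of the 24 fits without 1 array.

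These 24 probesets were mostly not the strongest reading of their gene. Only 2 of the 12 rises (Ankrd45 and Hectd2) and 4 of the 12 falls (Vmac, Prdm11, G0s2 and Ccdc134) were on the brightest probeset of the gene. For the other 18, the brightest probeset was not called. The brightest Atrx probeset (11.9) differed by -0.02, that of Map2 (13.0) by -0.05, that of Otud4 (10.2) by less than 0.01, that of Actr1a (11.1) by -0.09 and that of Top1 (11.6) by 0.01. Values for these genes therefore describe the stretch that the called probeset reads.

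Read on the brightest probeset of each gene, 588 of 18193 genes were called (3.23%), 323 higher (1.78%) and 265 lower (1.46%). Where that probeset was bright, 182 of 10894 genes were called (1.67%; 0.909% higher, 0.762% lower), where it was dim, 406 of 7299 (5.56%; 3.07% higher, 2.49% lower), and where it was in the brightest quartile, 76 of 6547 (1.16%), 48 higher (0.733%) and 28 lower (0.428%). The last group was picked out after the calls had been seen, and is described because its signals are the strongest on the array. Its smallest adjusted p was that of Clint1 (8.541e-06, limma), a clathrin adaptor of the trans-Golgi network. The Clint1 probeset (1452152_at) ran from 10.54 to 10.83 (median 10.70) in Ctrl and from 10.91 to 11.25 (median 11.07) in CIE, a rise of 0.38 ± 0.04, or 1.30-fold. All 12 CIE mice were above all 12 Ctrl mice, and the rise was 0.35 at 72h and 0.41 at 7d. Slc9a7, a sodium-proton exchanger of the same Golgi compartment, ran from 9.59 to 9.86 (median 9.69) in Ctrl and from 9.88 to 10.15 (median 10.0) in CIE. It rose by 0.30 ± 0.04, with 0.30 at each time, again with no overlap between groups.

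Among the others of this bright group, Rbmxl1, an RNA-binding protein, rose by 0.22 ± 0.03, from a Ctrl range of 10.11 to 10.37 to a CIE range of 10.39 to 10.55. Snrpf, a core protein of the spliceosomal particles, rose by 0.22 ± 0.03, from 8.97 to 9.16 in Ctrl and 9.20 to 9.37 in CIE. Neither pair of ranges overlapped. Pcdh10, a protocadherin that takes part in synapse elimination, rose by 0.33 ± 0.05 (adjusted p = 0.000188, limma), with 11 of 12 CIE mice above every Ctrl mouse. Slc30a5 (a zinc transporter, 0.20 ± 0.03), Lactb (a mitochondrial protein, 0.34 ± 0.05), Klf3 (a transcription factor, 0.32 ± 0.05), Zfp326 (0.34 ± 0.05), Smarce1 (a subunit of the BAF chromatin remodeller, 0.25 ± 0.04) and Gtpbp4 (a nucleolar GTPase, 0.20 ± 0.03) rose as well. Tmem169, a membrane protein, was the fall of smallest adjusted p in this group (-0.26 ± 0.04; adjusted p = 0.000207, limma), with 11 of 12 CIE mice below every Ctrl mouse. Hip1r (-0.27 ± 0.05) and Npepps (-0.21 ± 0.04), an endocytic adaptor and an aminopeptidase, also fell. Clint1, Slc9a7, Rbmxl1, Snrpf, Pcdh10, Lactb, Tmem169, Slc30a5, Klf3, Smarce1 and Gtpbp4 were called in each of the 24 fits without 1 array and in each of the other 11 settings tried.

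**Figure D3:**
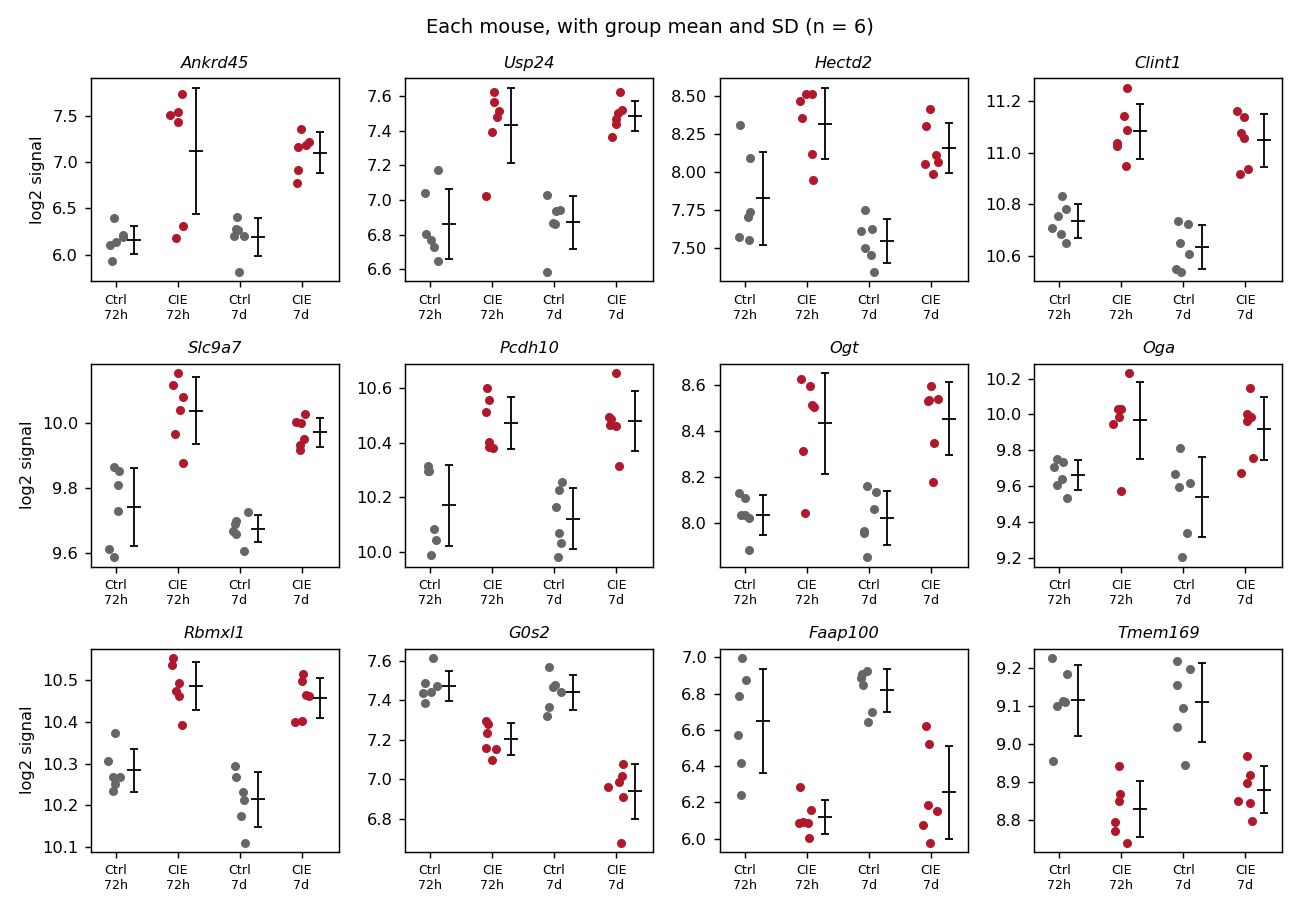
Log2 signal of 12 probesets (y axes, each on its own scale) in every mouse of the Ctrl and CIE groups at 72h and 7d (x axes). Grey points are Ctrl mice, red points CIE mice, and bars give the group mean with the SD of its 6 mice. For each gene the probeset of smallest adjusted p is drawn. In Clint1, Slc9a7, Rbmxl1 and G0s2 the CIE and Ctrl mice are fully apart, while in Ankrd45 the 2 CIE mice at 72h with values of 6.19 and 6.31 lie among the Ctrl mice.

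Complete separation of the 12 CIE from the 12 Ctrl mice was rare. It occurred for 54 probesets in all (0.12%), 36 with CIE above and 18 with CIE below, for 17 bright probesets (0.0755%), 13 above and 4 below, and for 37 dim ones (0.164%). The named genes among the bright ones were Clint1, Slc9a7, Rbmxl1, Snrpf, Mid2, Puf60, Irak1, Msantd4 and Caml, which were higher, and G0s2, Exo5, Cenpx and Denr, which were lower. Of these 13 probesets, 11 were the brightest of their gene, those of Puf60 and Irak1 were not, and the brightest probesets of these genes differed by -0.05 and -0.09. Denr, a factor for restarting translation, fell by 0.13 ± 0.03 from a Ctrl range of 11.09 to 11.26 to a CIE range of 10.93 to 11.08. It is the smallest of these differences, and its call was lost in 12 of the 24 fits without 1 array. Exo5, an exonuclease, fell by 0.28 ± 0.04 and Mid2, a ubiquitin ligase, rose by 0.36 ± 0.05.

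Calls on several probesets of a gene were few. Of 1236 genes called, 61 were called on several probesets, 43 in the same direction throughout and 18 in opposite directions. A group of 14 genes was called the same way on at least 2 bright probesets: Lancl2, Oga, Exoc6, Ogt, 6030458C11Rik, Usp9x, Aasdhppt, Cpeb2, Usp15, Uap1, Slc25a5 and Hnrnpd rose, while Slc35e4 and Pafah1b1 fell. One of the calls was lost in 17 of the 24 fits without 1 array for Exoc6, 16 for 6030458C11Rik and Usp9x, 13 for Slc35e4, 12 for Usp15 and 5 for Hnrnpd. Of the 29 bright probesets called in these 14 genes, 5 were the brightest of their gene. For the other 24, the brightest probeset had the same sign in 11 cases and was called the same way in 5. Cpeb2, a regulator of translation at the poly(A) tail, rose by 0.24 ± 0.04 on its brightest probeset and by 0.34 ± 0.07 on another. Pafah1b1, a dynein regulator, fell by 0.18 ± 0.04 and 0.15 ± 0.04 on 2 probesets, each call lost in 17 of the 24 fits without 1 array, while its brightest one was at 0.12 with an adjusted p of 0.0282 in the opposite direction. Probesets with the suffix x_at, which can bind several transcripts, made up the Slc25a5 and Uap1 calls in the bright set, and these are uncertain for that reason. Usp15 and Slc35e4 each had 1 such probeset among their 2 bright calls, so their agreement is uncertain too.

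Oga, Ogt and Uap1 act in a single pathway. O-GlcNAc is a sugar that Ogt attaches to serines and threonines of nuclear and cytosolic proteins and that Oga removes. Uap1 makes its donor, UDP-GlcNAc. The Ogt probeset 1451738_at ran from 7.85 to 8.16 (median 8.04) in Ctrl and from 8.05 to 8.63 (median 8.52) in CIE, with 11 of 12 CIE mice above all Ctrl mice, a rise of 0.42 ± 0.06 (adjusted p = 0.000168, limma). The second Ogt probeset (1425516_at) rose by 0.25 ± 0.04, from a median of 9.80 to 10.05. Oga rose on 3 probesets, by 0.35 ± 0.07, 0.23 ± 0.06 and 0.18 ± 0.04. The first (1422900_at) ran from 9.20 to 9.81 in Ctrl and from 9.57 to 10.23 in CIE. The Uap1 probesets rose by 0.26 ± 0.06 and 0.27 ± 0.06, and a dim one by 0.23 ± 0.05. The brightest probesets of these genes gave less: 0.07 ± 0.04 for Ogt (level 12.2), a difference under 0.01 in size with an SE of 0.03 for Oga (12.8) and 0.03 ± 0.04 for Uap1 (10.95), none of them called. The pathway was put together after these calls had been seen and has no test. Over its 12 genes, 8 of 37 probesets rose (21.6%, against 2.14% of all probesets) and 0 fell, all 8 in these 3 genes, and 7 of the 28 bright ones rose (25%, against 1.35% of all bright probesets). The calls of these 3 genes chose the pathway, so both shares are raised by that choice. None of its other genes was called. The rises of Oga on 1422901_at and 1422902_s_at were lost in 19 and 13 of the 24 fits without 1 array, and that of Uap1 on 1456516_x_at in 9.

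The RefSeq promoters of these 3 genes are shown because each gene rose on 2 or more of its probesets, as the 250 bases before the start in build GRCm38.p6, with matches to the motifs given below in capitals. They lie at chr19:45783554-45783803 on the minus strand for Oga, chrX:101639801-101640050 on the plus strand for Ogt and chr1:170174965-170175214 on the minus strand for Uap1, each upstream of its gene.
Oga: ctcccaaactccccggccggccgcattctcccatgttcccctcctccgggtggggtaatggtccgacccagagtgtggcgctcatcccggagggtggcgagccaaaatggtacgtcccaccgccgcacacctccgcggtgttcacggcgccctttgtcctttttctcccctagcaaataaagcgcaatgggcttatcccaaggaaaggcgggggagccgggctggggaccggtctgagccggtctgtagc
Ogt: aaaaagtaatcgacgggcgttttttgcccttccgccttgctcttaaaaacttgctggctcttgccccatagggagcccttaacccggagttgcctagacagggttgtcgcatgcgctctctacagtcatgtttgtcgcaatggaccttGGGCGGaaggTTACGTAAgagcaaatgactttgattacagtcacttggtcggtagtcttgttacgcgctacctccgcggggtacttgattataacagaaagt
Uap1: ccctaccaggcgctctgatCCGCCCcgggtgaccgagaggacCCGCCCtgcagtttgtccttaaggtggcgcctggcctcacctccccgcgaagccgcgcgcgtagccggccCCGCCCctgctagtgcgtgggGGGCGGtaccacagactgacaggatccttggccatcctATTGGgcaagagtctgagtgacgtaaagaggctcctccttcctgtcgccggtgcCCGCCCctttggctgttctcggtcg
Ogt held a GC box (GGGCGG) and a D-box (TTACGTAA), Uap1 held 5 GC boxes and a CCAAT box, and the Oga window held none of the motifs. Searched on both strands over 250 bases before and 50 after the start, the D-box was in 0.188% of 9023 windows of genes with a bright probeset and the GC box in 65.8%.

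The same search was made over all genes that rose or fell on a bright probeset. The cAMP response element (TGACGTCA) was in 3.12% of 192 windows of genes that rose, 0.893% of 112 windows of genes that fell and 3.34% of all. The D-box was in 0.521%, 0.893% and 0.188%, which for each of the first 2 sets is 1 window. The E-box (CACGTG) was in 9.9%, 13.4% and 10.4%, the GC box in 63%, 68.8% and 65.8%, and the TATA box (TATAAA) in 4.69%, 8.93% and 6.56%. The CCAAT box (CCAAT) was in 31.8% of the windows of genes that rose, 48.2% of those that fell and 38.2% of all. Genes that rose on a bright probeset were longer in the genome (median 38.2 kb, n = 237) than those that fell (21.7 kb, n = 148) and than all genes with a bright probeset (25.6 kb). No test was made of these descriptions.

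Deubiquitinases, which remove ubiquitin from proteins, were gathered as a family because several were among the largest rises, and the family has no test for that reason. Over 69 genes of the deubiquitinase families, a few of which are thought to lack the activity, 9 of 167 probesets rose (5.39%, against 2.14% of all probesets) and 1 fell. Among their 127 bright probesets 9 rose (7.09%, against 1.35% of all bright probesets) and 0 fell. Both shares contain the calls of Otud4, Usp15, Usp24 and Yod1, which led to the family, and are raised by that choice. The rises were those of Otud4, Usp15 (2 probesets), Usp24, Usp34, Usp7, Usp9x (2 probesets) and Yod1, and the fall was a dim probeset of Usp24 (-0.23 ± 0.05). Only Usp34 (0.16 ± 0.04) and Usp9x (0.18 ± 0.04) rose on the brightest probeset of the gene, and these calls were lost in 14 and 16 of the 24 fits without 1 array. The median over the family was 0.01, and 93 of its 167 probesets were higher in CIE.

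Among dim probesets the largest rises were those of Nkrf, Abca1, Lin7c, Defb45 and Smim10l1, and the largest falls those of Smyd5, Krtap5-1, Uty, Gm15663 and Sgsh. They ran from 0.64 to 0.76 among the rises and from -0.77 to -0.57 among the falls. Abca1, the cholesterol efflux transporter, read from 4.17 to 4.93 (median 4.53) in Ctrl and from 4.90 to 5.45 (median 5.29) in CIE on probeset 1421839_at, a rise of 0.70 ± 0.08 (adjusted p = 1.393e-05, limma). Its brightest probeset, at 9.86, differed by -0.01. Smim10l1 was the one of the 10 whose groups did not overlap (5.70 to 6.23 in Ctrl, 6.32 to 7.08 in CIE). Its brightest probeset, at 11.7, differed by 0.12 and was not called. Defb45, a beta-defensin, has 1 probeset and rose by 0.67 ± 0.08. Smyd5, of the SMYD methyltransferase family, fell by 0.77 ± 0.18 with a wide Ctrl range (5.13 to 7.15), -0.44 at 72h and -1.10 at 7d, and the call was lost in 14 of the 24 fits without 1 array. Uty, a histone demethylase gene of the Y chromosome that all these male mice carry, fell by 0.64 ± 0.12 on 1459565_at, while its brightest probeset differed by 0.05. Sgsh, a lysosomal sulfamidase, fell by 0.57 ± 0.09 on one probeset and was at 0.20 on the other.

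Across all calls, the other probesets of a gene seldom moved with the called one. Of 1303 called probesets with 1 symbol, 715 were not the brightest probeset of their gene. The brightest probeset had the same sign in 51.9% of cases, against 51.2% among all probesets that are not the brightest of their gene. It was called in the same direction in 17 cases and in the opposite direction in 9. Where both probesets were bright, 52.6% of 215 had the same sign. The same count at 0h after exposure, in other mice, was 62.5% of 1141 called probesets (background 57.4%), and 74.1% of 406 where both were bright. At 8h it was 57.4% of 580, against 53.6%. The late calls were thus at the background for agreement within genes, and the reason was not tested.

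**Figure D4:**
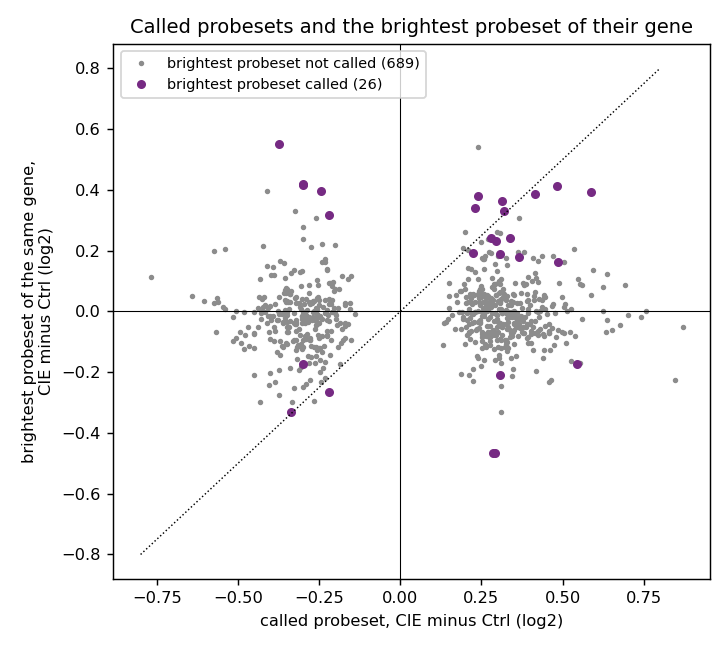
For each of the 715 called probesets that were not the brightest of their gene, its difference between CIE and Ctrl (log2; x axis) against that of the brightest probeset of the same gene (log2; y axis). Purple points mark the 26 whose brightest probeset was called too. Most points lie near 0 on the y axis, 371 of 715 having the same sign on both axes, and the dotted line marks equal differences.

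At a single time point far fewer differences were called. At 72h alone 160 probesets passed (0.355%), 101 higher (0.224%) and 59 lower (0.131%), and at 7d alone 221 (0.491%), 115 higher (0.255%) and 106 lower (0.235%). Both times shared 33, all with the same sign. Of the 1748 pooled calls, 1434 were called at neither time alone, 416 of them bright, while 34 probesets were called at a single time and not in the pooled fit. The probesets called at 72h had the same sign at 7d in 157 of 160 cases, and those called at 7d the same sign at 72h in 216 of 221, against 63.4% of all probesets. A median of 0.446 at 72h went with 0.278 at 7d, and a median of 0.454 at 7d with 0.265 at 72h, where the time that chose the probesets has the larger value by that choice. The test of the difference between the 7d and 72h effects called 0 probesets by limma (0% at this threshold, 2865 or 6.36% at an unadjusted p under 0.05, smallest adjusted p 0.274) and also 0 with array weights or with all 47 arrays, so no probeset was shown to differ between the times, which is not evidence of equal effects. Over all probesets, the effects at both times correlated at r = 0.435 (across probesets, which are not replicates), 0.298 for bright and 0.513 for dim ones. The number called at 7d depended on the fit: 427 with the spread of all 47 arrays and 1567 with array weights.

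**Figure D5:**
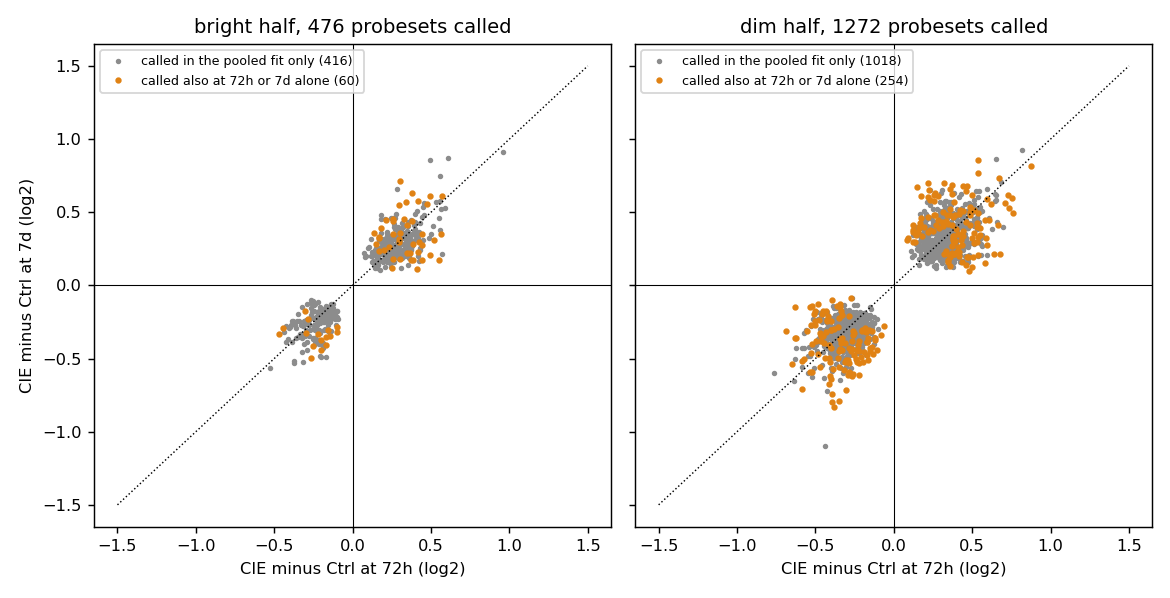
Difference between CIE and Ctrl at 72h (log2; x axis) and at 7d (log2; y axis) for the 476 bright (left) and 1272 dim (right) probesets called in the pooled comparison. Orange points were also called at 72h or 7d alone, grey points (416 bright and 1018 dim) in the pooled comparison only. The dotted line marks equal effects, and the shared signs follow in part from the choice of probesets by the pooled fit.

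The probesets that differed late were compared with their effect at 0h and 8h, measured in other mice with Ctrl mice of their own. The 8h groups had 6 Ctrl and 5 CIE mice and, by their labels, mixed repeat groups. The fit had no term for repeat group. In the 8-group fit 3277 probesets were called at 0h (7.28%; 3.69% higher, 3.58% lower) and 1527 at 8h (3.39%; 2.28% higher, 1.11% lower). Of the 962 late rises, 79.4% were also higher at 0h, against 50% of all probesets, and 143 (14.9%) were called there in the same direction and 3 in the opposite one. Of the 786 late falls, 76.5% were also lower at 0h and 129 (16.4%) were called lower. At 8h the late rises were higher in 76.7% (117 called) and the late falls lower in 66.2% (23 called). Bright rises agreed in sign with 0h in 83.9% of 305 cases. A median of 0.153 at 0h went with 0.311 late among rises, and -0.13 with -0.30 among falls, but the probesets were chosen by the late values, which makes these the larger. Clint1 was higher at 0h by 0.32 (adjusted p = 0.000103, limma), Slc9a7 by 0.28 and G0s2 lower by 0.43, while Rbmxl1 was at -0.01 (adjusted p = 0.929) and Snrpf at 0.03 (adjusted p = 0.73).

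Lists of genes of known function were read against all genes, with no test of the difference. Of 1177 listed genes, 14 were called on their brightest probeset (1.19%, against 3.23% of all 18193 genes). Listed genes are mostly read by bright probesets. In the bright set 2 of 947 listed genes were called (0.211%, against 1.67%), and in the dim set 12 of 230 (5.22%, against 5.56%). The 2 bright ones were Cdc25a, a cell cycle phosphatase (0.33 ± 0.06), and Kat6a, a histone acetyltransferase (-0.23 ± 0.04; adjusted p = 0.000997, limma). Where the brightest probeset gave way to that of smallest p, 59 listed genes were called (5.01%, against 6.79% of all genes). The list counts that follow are on the brightest probeset unless another is named.

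Of the immune lists, the interferon, antigen presentation, and cytokine and NF-kB genes had medians of 0.01, 0.05 and -0.01. The T-cell and immunoglobulin genes had a median of -0.07, and all genes one of -0.01. In the interferon list 18 of 34 genes were higher, with Dhx58 (-0.42 ± 0.07) and Irf7 (-0.36 ± 0.08), a sensor and a transcription factor of the interferon response, called lower on dim probesets. The list median was 0.01 late, 0.26 at 0h and 0.21 at 8h. The antigen presentation list had 0 of 18 genes called and a median of 0.05 late, 0.56 at 0h and 0.81 at 8h. Among cytokine and NF-kB genes, Tlr4, an innate receptor, rose (0.25 ± 0.06) and Ccl2, a chemokine, fell (-0.38 ± 0.09), both dim and the calls among 33 on the brightest probeset. Socs3, an inhibitor of cytokine signalling, fell by 0.30 on another, dim probeset. Cd3d, a T-cell receptor component (0.33 ± 0.08), was the call on the brightest probeset among 21 T-cell and immunoglobulin genes, and Icos (0.31) and Il2ra (0.35) rose on other, dim probesets. None of 29 microglial and 30 astrocyte genes was called on the brightest probeset. The astrocyte list had a median of -0.06, with 9 of its 30 genes higher. At an unadjusted p under 0.05, 7 astrocyte genes were lower and 0 higher, against 11.4% lower and 11% higher of all genes. The astrocyte genes Gja1, a gap junction protein (0.30, x_at), and Ttyh1, a chloride channel protein (-0.28), were called on other bright probesets. Outside these lists, Mcm5, a DNA replication helicase subunit, fell by 0.38 ± 0.07 and Cnn1, a smooth muscle protein, by 0.33 ± 0.08, both dim.

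Lists of the stress and activity response had no call. The glucocorticoid list had a median of -0.04 late, with 9 of 30 genes higher, beside 0.30 at 0h and 0.32 at 8h. Plin4, a lipid droplet protein induced by glucocorticoids, was at -0.64 ± 0.20 late (adjusted p = 0.0469, limma) and at 2.54 at 0h. The immediate early list had a median of -0.02 late, -0.11 at 72h and 0.06 at 7d, beside -0.62 at 0h. Its smallest p was that of Rheb (0.11 ± 0.03; adjusted p = 0.027, limma), and Fos was at 0.01 ± 0.25. The differences between early and late list medians were not tested.

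Synaptic and excitability lists gave 0 calls among 15 GABA-A receptor subunits, 16 ionotropic glutamate receptor subunits, 43 synaptic vesicle genes, 39 potassium channel genes, 28 calcium channel and pump genes and 9 sodium channel genes, with list medians between -0.03 and 0.03. On other probesets 2 vesicle, 3 potassium channel and 2 calcium channel genes were called. The smallest p values among GABA-A subunits were those of Gabrr1 (-0.21 ± 0.06, adjusted p = 0.0157, limma) and Gabrg1 (-0.19 ± 0.05, adjusted p = 0.0188). Ret, the receptor for the GDNF family, was the call among 16 neurotrophin genes (0.54 ± 0.12, dim), and Bdnf, the most studied of them, was at -0.02 ± 0.10. Nmur2, a neuromedin receptor, was the call among 30 stress neuropeptide genes (-0.50 ± 0.10, dim) and was 0.55 higher at 0h.

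Of the chromatin lists, the first below had 4.55% of its genes called, against 3.23% of all genes. Of 44 genes of histone acetyltransferases, methyltransferases, demethylases and their partners, 32 were lower in CIE (median -0.07), 2 were called lower (Kat6a, and Suv39h2, a methyltransferase, at -0.40 ± 0.06) and 0 higher. At an unadjusted p under 0.05, 11 were lower and 4 higher, against 11.4% lower and 11% higher of all genes. Kat2b (0.42 ± 0.11) and Kat5 (0.27 ± 0.08), both acetyltransferases, had adjusted p of 0.0179 and 0.0251 by limma in the other direction. Kdm5a, a demethylase, rose by 0.31 on a bright probeset that is not its brightest, and Bcor by 0.22. None of 17 histone deacetylase genes (median -0.01) and none of 16 DNA methylation genes (median -0.07) was called on the brightest probeset. Dnmt3a, a DNA methyltransferase, rose by 0.25 on another bright probeset (adjusted p = 0.00175, limma) and was at -0.10 on its brightest, and Mbd1 (0.25) and Mbd4 (-0.23), which bind methylated DNA, were called on dim ones.

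Myelin genes were lower in 22 of 26 cases with a median of -0.06, 0 called, and Olig1, a transcription factor of the oligodendrocyte lineage, had the smallest p (-0.18 ± 0.09). Their list mean ranged from 10.1 to 11.1 in Ctrl and from 10.3 to 11.2 in CIE. Mitochondrial respiratory chain genes were higher in 33 of 44 cases with a median of 0.02, 0 called, and Ndufb3 (0.11 ± 0.03; adjusted p = 0.0146, limma) had the smallest p. Splicing factors (43 genes, median 0.00), ribosomal proteins (29, 0.00) and proteasome and ubiquitin genes (32, 0.01) had 0 calls on the brightest probeset. On other probesets 6, 3 and 1 of them were called, among the splicing factors Hnrnpd on 2 bright probesets (0.21 and 0.33) beside a brightest one at -0.01.

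Lists of neighbouring tissue had medians that differed between the times, a difference that was not tested. Striatal projection neuron genes were higher in 17 of 20 cases with a median of 0.13, 0 called, and their median was 0.35 at 72h, -0.11 at 7d and 0.57 at 0h. Drd2, which marks striatal neurons, was at 0.36 ± 0.35. With the striatal list mean as a term, the pooled comparison gave 1729 calls, 1603 of them among the 1748. Fibroblast and meningeal genes had a median of -0.21 at 72h and 0.20 at 7d. Choroid plexus and ependymal genes gave 1 rise (Clic6, a chloride channel protein, 0.43 ± 0.06) and 1 fall (Kcne2, a potassium channel subunit, -0.29 ± 0.05) among 14, while Ttr, the main choroid plexus transcript, was at -0.49 ± 0.46 with an SD of 1.199 in Ctrl and 1.22 in CIE. The part of such tissue in other calls was not tested beyond the striatal term.

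A list of 23 genes drawn from the study's text on PFC, which is a part of those it named, had 0 calls on the brightest probeset, while Bcor was called on another (0.22, bright). Sgsh, Nmur2 and Suv39h2, which the study also named, are called lower above and are not in this list. Of the 23, 18 were lower in CIE, with a median of -0.05. Genes the study chose on these mice are not independent evidence. Cebpg, a transcription factor of the C/EBP family, had the smallest p (-0.14 ± 0.04; adjusted p = 0.0237, limma), -0.14 at both times.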

How the data were processed

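Medial PFC RNA of single mice was hybridised to Affymetrix whole-genome mouse arrays. The values deposited by the authors are log2 signals, 1 for each probeset and array, made per the study's methods and the submitters' processing notes with RMA, quantile normalization and ComBat for repeat group; their versions were not given. All 24 late arrays lie in repeat group 1. Scaling of this kind sets array medians equal, so a shift common to all genes cannot be seen. No control probesets were used. Of 45037 probesets, 34945 had 1 gene symbol, 932 several and 9160 none listed; 34741 symbols were updated through Entrez identifiers (RefSeq, GRCm38.p6). No value columns were left out (0). The number of arrays limits precision.

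CIE minus Ctrl was fitted with limma 3.58.1 (R 4.3.3) on the 24 arrays, with time as a block and Benjamini-Hochberg adjustment over all probesets, FDR ≤ 0.01; every adjusted p of a late difference is from this fit and SE is its moderated standard error. A model of the 4 group means gave 72h, 7d and their difference, and one of all 8 groups gave 0h and 8h. Ranges and medians are over mice. A gene's brightest probeset is the one of highest mean level, suffixes x_at and s_at last. Genes named are the 12 largest rises and falls among bright and the 5 among dim probesets (1 symbol, no x_at), up to 4 called members of a list or 2 of smallest p, and others said to be chosen after their values were seen. The members, lists and groups of genes were chosen with earlier results of these data known. The fits were tested on simulated data. Alternatives are given in the closing section. Figures used matplotlib.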

Additional observations from a re-analysis of the deposited data

Results flagged for a closer look

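Each of the results below is a mouse that lay apart from the other 5 of its group, by a gap to the nearest of them that was above Dixon's critical value for 6 samples. Chance gives about 1 such group in 20. It occurred in 28 of 384 tests on the named probesets, 18 of 188 on list means and 1 of 4 on array correlation. The causes were not tested.

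The mean correlation with the other arrays was 0.9854 in CIE 72h mouse 3. In the same mouse Atrx read 5.87, A230006K03Rik 7.79, Ate1 6.376, Trps1 6.062, Actr1a 6.157, Exoc6 8.941, Aasdhppt 9.865, Cpeb2 8.068 and Caml 9.896. In other CIE mice at 72h, Map2 read 8.599 in mouse 71, B3galt2 7.005 in mouse 63 and Slc25a5 9.097 in mouse 35. In CIE mice at 7d, Puf60 read 6.984 and Suv39h2 5.75 in mouse 45, and Dhx58 read 4.869 in mouse 13.

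In Ctrl 7d mouse 46, Ankrd45 read 5.81, Smyd5 7.147, 6030458C11Rik 10.06, Lactb 8.979 and Slc30a5 9.97. In other Ctrl mice at 7d, Usp9x read 11.06 in mouse 18, Aasdhppt 7.49 in mouse 70, Mid2 6.479 in mouse 28 and Tlr4 4.742 in mouse 22. In Ctrl mice at 72h, Cenpx read 7.896 and Mid2 6.488 in mouse 68, Prdm11 7.041 in mouse 44 and Cd3d 5.749 in mouse 24.

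Among list means, Ctrl 72h mouse 24 stood apart for fibroblast and meningeal genes (8.359), antigen presentation genes (8.295), choroid plexus and ependymal genes (5.895), perineuronal net and matrix genes (8.164) and cell cycle genes (7.4). CIE 7d mouse 27 stood apart for fibroblast and meningeal genes (9.173), antigen presentation genes (7.816), interferon response genes (6.899), pericyte and smooth muscle genes (7.246) and antioxidant genes (10). CIE 7d mouse 7 stood apart for striatal projection neuron genes (9.012), neurotrophin genes (8.454) and cell cycle genes (7.342). The remaining means were those of immediate early genes in CIE 7d mouse 13 (9.681), excitatory cortical neuron genes in Ctrl 7d mouse 46 (10.23), ionotropic glutamate receptor subunits in CIE 72h mouse 33 (8.643), neurotrophin genes in Ctrl 7d mouse 22 (8.464) and cell cycle genes in CIE 72h mouse 29 (7.453).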

How the results depend on the processing

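The pooled count of 1748 was 4411 with array weights, 2772 once the first residual component entered the model, 296 with only bright probesets tested (68.6% of them higher, against 64.1% of the 476), 527 with only the brightest probeset of each gene tested, and 4517 at an FDR of 0.05. The bright count of 476 was 1370, 977, 296 and 1407 under weights, component, bright-only testing and FDR 0.05, and the dim count of 1272 was 3041 and 3110 under weights and FDR 0.05. Without the 4 arrays named with the pooled count, an alternative chosen after seeing the data, the counts were 895, 234 and 661. The count at 72h (160) was 444 with weights, and that at 7d (221) was 427 with all 47 arrays and 1567 with weights. Listed genes called were 14, or 59 by the probeset of smallest p. Of the 34 genes named by rule, 20 were called with only bright probesets tested and 8 with only the brightest of each gene, where fewer were tested. Leaving out each array in turn gave 1263 to 1987 calls in all, 321 to 556 bright, 942 to 1459 dim and 28 to 33 named genes. None of 155 named probesets reversed in any setting (0). For the other changes the cause was not tested. No paired analysis was possible because no mouse number occurs in more than 1 group. Differences are small, levels are relative within arrays, and 12 mice per arm limit what can be called.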
